A study of Eptesicus fuscus and Canis lupus familiaris and Equus caballus with 4 samples.

Results

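In the testis small RNA of the big brown bat, Eptesicus fuscus, 87 loci carried reads on both arms of a hairpin. They were found as hairpin candidates that overlapped another candidate on the same contig and strand while their mature sequences, the stretch listed as the miRNA, did not overlap each other. This rule took in 177 of the 762 bat candidates (23.2%), on 72 contigs, out of 1453 candidates listed for bat, horse and dog together. The positions of the reads chose the loci, so the number of loci, their reads and the presence of a second arm are descriptions. All values come from 1 library of snap-frozen testis from an adult bat, sequenced as 50 bp single-end reads. The study also sequenced testis of horse and dog and of another bat individual, and none of these libraries was analysed here. The bat list sums to 89091 reads, and the depth of the library itself is unknown from the list. With 1 bat library there were no replicates, no test was made and no p-value is given. Ranges in brackets after a share are 95% intervals by the exact Clopper-Pearson method. They treat reads or candidates as independent and hold for counting error alone.

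A miRNA is cut from a folded transcript in 2 steps. Drosha cuts the base of the hairpin in the nucleus, and Dicer then removes the loop in the cytoplasm. Both enzymes belong to the RNase III class and leave 3′ overhangs of 2 bases, so the product is a short duplex with an overhang at each end. Usually 1 strand of the duplex is loaded into an Argonaute protein and kept, and the partner, called the star or passenger strand, is degraded. The strand from the 5′ side of the hairpin is called 5p and that from the 3′ side 3p. Finding both strands, placed as a duplex with such overhangs, is a usual criterion for calling a hairpin a miRNA gene.

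Each hairpin of a member was drawn by the authors' program around its own mature sequence, with 15 to 40 bases outside it in steps of 5 bases in all 177 members, so that the 2 arms of 1 hairpin came out as 2 overlapping candidates. Of the 87 loci, 85 held 2 candidates. The hairpins of the stronger and the weaker arm shared a median of 125 bases. In 86 loci they shared 89 to 143 bases, and in the remaining locus they shared 2. That locus, at ALEH01133754.1, joined the neighbouring hairpins of miR-24-2 and miR-27a, each of which had both arms, and its strongest candidates were the 3p arms of different hairpins. The other locus with more than 2 candidates, led by Candidate_819, listed its 3p arm in 2 versions. Just outside the rule lay 3 overlapping sets whose mature sequences shared 18, 24 and 21 bases, with 3 and 6, 107 and 31, and 28 and 42 reads. Just inside it, the smallest distance between 2 arms was 10 bases.

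The sequences below show the range of arm use and are listed as deposited, with T for U. Capitals mark bases 2 to 8, which form the seed when the listed 5′ end is the true one. Contig positions are those of the deposited list. The build these contigs belong to could not be settled from the sources used here, so no gene annotation could be attached. Names of known miRNAs were given from general knowledge of vertebrate miRNAs, and hairpins that could not be named with certainty keep their candidate number. The first set holds hairpins with very unequal arms, hairpins with nearly equal ones, miR-423 with both arms well read, and miR-449a.
miR-99a 5p arm at ALEH01062116.1:4072-4096, plus strand: aAACCCGTagatccgatcttgtggt
miR-99a 3p arm at ALEH01062116.1:4110-4132, plus strand: cAAGCTCGcttctatgggtctgt
miR-22 5p arm at ALEH01073886.1:6811-6831, minus strand: aGTTCTTCagtggcaagcttt
miR-22 3p arm at ALEH01073886.1:6770-6794, minus strand: aAAGCTGCcagttgaagaactgttg
miR-152 5p arm at ALEH01106565.1:362-384, plus strand: aGGTTCTGtgatacactccgact
miR-152 3p arm at ALEH01106565.1:399-422, plus strand: gTCAGTGCatgacagaacttgggc
Candidate_514 5p arm at ALEH01144127.1:7787-7810, minus strand: tATTTAGGaaggcaccattcacat
Candidate_514 3p arm at ALEH01144127.1:7751-7774, minus strand: tGAAGTGCgccttcctgagtagag
Candidate_487 5p arm at ALEH01160448.1:751-775, minus strand: gTTGGCGGtatcactggtactgtgg
Candidate_487 3p arm at ALEH01160448.1:715-736, minus strand: aGTACCAGacatgccgcccctc
miR-423 5p arm at ALEH01073765.1:2690-2713, plus strand: tGAGGGGCagagagcgagactttt
miR-423 3p arm at ALEH01073765.1:2725-2749, plus strand: aAGCTCGGtctgaggcccctcagtc
miR-199a 5p arm at ALEH01134246.1:26890-26912, plus strand: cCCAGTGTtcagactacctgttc
miR-199a 3p arm at ALEH01134246.1:26930-26952, plus strand: tACAGTAGtctgcacattggtta
Candidate_215 5p arm at ALEH01144121.1:3171-3194, minus strand: tTCACAAGaaggtgccattcatgt
Candidate_215 3p arm at ALEH01144121.1:3136-3160, minus strand: aTGAACGGcacaattttgtgaagag
miR-449a 5p arm at ALEH01147001.1:844-868, minus strand: tGGCAGTGtattgttagctggttgg
miR-449a 3p arm at ALEH01147001.1:808-830, minus strand: tCAGCTAAcatgcaactgctgtc

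Known miRNAs made up 57 of the 87 loci, and 30 loci were left unnamed. Their median reads over both arms were similar, at 192 (range 3 to 8105) in the named loci and 156.5 (range 3 to 642) in the unnamed ones. The highest totals were those of named loci. Reads on both arms were therefore also found at hairpins whose identity was not settled here. The named loci include miR-449a, a miRNA of ciliated cells and of male germ cells, with 414 reads on its 5p arm and 7 on its 3p arm. They also include miRNAs known from other cells of the organ. MiR-199a, miR-199b and miR-214 are typical of fibroblasts and other stroma, miR-126 of endothelium, miR-200a of epithelium, miR-133a of muscle and miR-9 of neural cells. In a whole organ, fewer cells of a type and less RNA per cell cannot be told apart.

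Neither arm prevailed over the loci. The 5p arm had more reads in 42 loci and the 3p arm in 43, which is 49.4% for 5p without ties (38.4 to 60.5). The 2 ties were miR-494 and miR-487a, each with 2 reads on either arm. The named loci favoured 5p in 26 of 55 (47.3%, 33.7 to 61.2) and the unnamed ones in 16 of 30 (53.3%, 34.3 to 71.7). In both groups the interval spans an even split. Each locus was counted separately, though 19 loci shared an arm, and so its count, with another, which the intervals do not take into account. Among the 16 unnamed loci led by 5p, 5 listed the same 5p arm of 153 reads. With identical pairs of arms counted once, the 5p share over all loci was 48.8% (37.4 to 60.2). The stronger arm had a median of 14.5 times the reads of the weaker where 5p led and 11.4 times where 3p led.

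Most loci were unequal. The stronger arms held 31402 reads in all and the weaker arms 1698, or 5.13% of the reads at these loci. The ratio of the stronger to the weaker arm had a median of 11.4 and ran from 1 to 1620. It was at least 10 in 46 loci, at least 100 in 18 and under 2 in 13. A weaker arm rested on 1 read in 16 loci and on 2 reads in 14, so many high ratios rest on few reads. At least 10 reads lay on both arms of 27 loci, the joined locus included. The weaker arms had a median of 6 reads (range 1 to 244) and the stronger arms 151 (range 2 to 8100).

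The 5 largest ratios with at least 10 reads on the stronger arm belonged to miR-99a, miR-22, Candidate_514, Candidate_487 and miR-152. MiR-99a, of the miR-100 family that targets growth factor and mTOR signalling, had 8100 reads on 5p and 5 on 3p, a ratio of 1620. MiR-22, a widely expressed miRNA, had 4975 reads on 3p and 6 on 5p, a ratio of 829. The fifth, miR-152, of the miR-148 family that targets the DNA methyltransferase Dnmt1, had 931 reads on 3p and 4 on 5p. In these 3 the 5p share lay close to 100% or 0, at 99.94% for miR-99a (99.86 to 99.98). Among the unnamed hairpins, Candidate_514 had 331 reads on 3p and 1 on 5p, and Candidate_487 had 640 on 5p and 2 on 3p. The 5p sequence of Candidate_487 differs from that of Candidate_423, with 626 reads, only in the last bases. Whether these 2 list the same reads was not tested. MiR-204, a miRNA of retina, kidney and secretory epithelia, had 996 on 5p and 8 on 3p.

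At the other end, some hairpins had near equal reads on their arms. Candidate_215 gave 135 on 5p and 130 on 3p, a 5p share of 50.9% (44.8 to 57.1), an interval that holds an even split. MiR-199a was listed with 244 reads on 5p and 256 on 3p, a ratio of 1.05, but its 3p sequence was the same at 3 loci, miR-199b among them, so these counts do not give the arm use of miR-199a alone. Candidate_391 had 26 and 24 reads on its 5p and 3p arms, and Candidate_376 had 12 and 14, with all 12 reads of its 5p arm from 1 distinct sequence. MiR-423, a broadly expressed miRNA with both arms in common use, stood between the extremes with 154 reads on 5p and 724 on 3p.

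**Figure D1:**
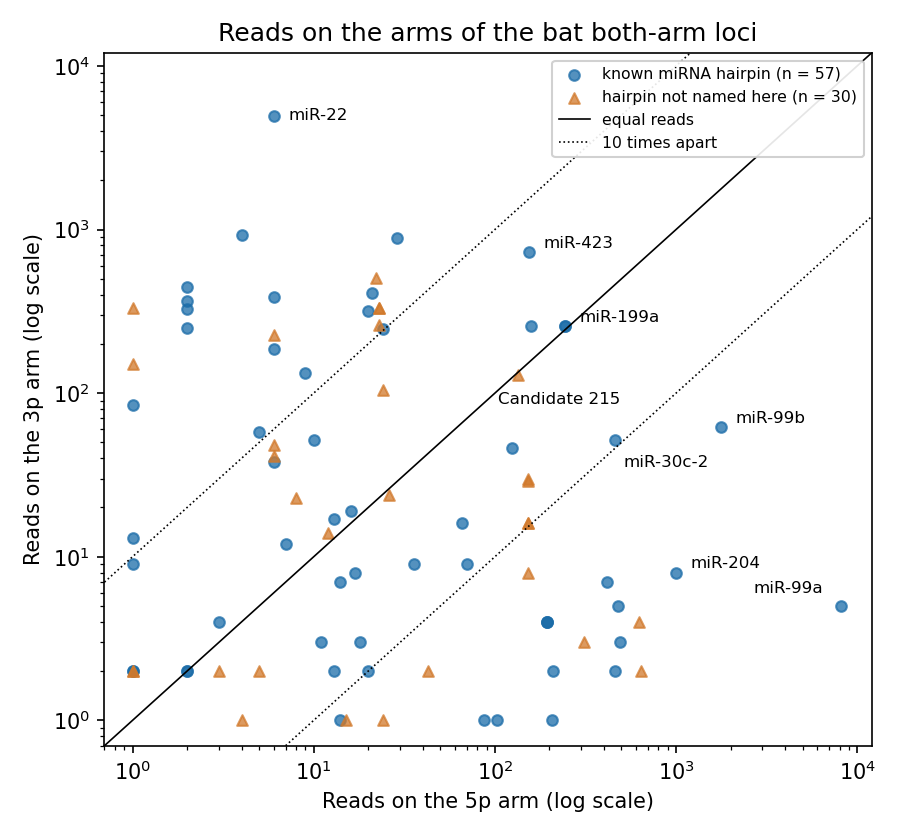
Reads on the 5p arm (x axis, log scale) and the 3p arm (y axis, log scale) of each of the 87 loci, with named miRNAs as circles and unnamed hairpins as triangles; the solid line marks equal reads and the dotted lines a ratio of 10. The circle at 29 and 883 reads joins the 3p arms of miR-27a and miR-24-2. Points lie on both sides of the equal line in similar number, 42 below it and 43 above, and miR-99a and miR-22 lie farthest from it.

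Other loci with at least 10 reads on both arms fell between these. On the 5p side, miR-99b had 1766 reads on 5p and 62 on 3p, and miR-424, a member of the miR-16 family that restrains the cell cycle, had 66 and 16. On the 3p side, miR-151 had 408 reads on 3p and 21 on 5p, miR-221 had 318 and 20, and miR-28 had 247 and 24. The 3p arm also led at the unnamed Candidate_870 with 506 against 22 reads, at Candidate_869 with 262 against 23 and at Candidate_326 with 104 against 24. MiR-133a had 52 reads on 3p and 10 on 5p, miR-324 had 17 and 13, and miR-136 had 19 and 16. Split into its hairpins, the joined locus gave 883 reads on 3p and 13 on 5p for miR-24-2, and 29 on 3p and 25 on 5p for miR-27a, a ratio of 1.16. Adjacent hairpins on 1 contig thus listed ratios of 67.9 and 1.16. Whether other hairpins also give any of these arms was not tested. The arms of both hairpins are shown because the rule joined them.
miR-24-2 5p arm at ALEH01133754.1:5641-5665, plus strand: gTGCCTACtgagctgaaacacagtt
miR-24-2 3p arm at ALEH01133754.1:5678-5702, plus strand: cTGGCTCAgttcagcaggaacagga
miR-27a 5p arm at ALEH01133754.1:5498-5522, plus strand: aGGGCTTAgctgcttgtgagcaggg
miR-27a 3p arm at ALEH01133754.1:5539-5559, plus strand: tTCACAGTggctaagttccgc

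Related hairpins mostly listed the same stronger arm, in part through shared counts. Of 11 seeds shared by arms of different sequence, 8 joined loci that all led on the same arm, 2 joined loci that led on opposite arms and 1 included the tie at miR-487a. Among the 8, Candidate_422, Candidate_521 and Candidate_671 list 1 common 5p arm of 153 reads. The miR-199a and miR-199b loci list 1 common 3p arm of 256 reads. In both cases the shared count is the stronger arm, so agreement was fixed. The stronger arms of the 2 miR-218 loci, and of Candidate_423 and Candidate_487, differ only in their last bases. Whether these share reads was not tested. The 2 opposite cases were miR-181b with miR-181c and miR-193a with miR-193b. The next sequences show relatives that share a seed or a whole arm, and neighbours of 1 cluster.
miR-181b 5p arm at ALEH01115351.1:38524-38548, plus strand: aACATTCAttgctgtcggtgggttt
miR-181b 3p arm at ALEH01115351.1:38562-38583, plus strand: cTCACTGAtcaatgaatgcaaa
miR-181c 5p arm at ALEH01133750.1:11203-11226, minus strand: aACATTCAacctgtcggtgagttt
miR-181c 3p arm at ALEH01133750.1:11166-11188, minus strand: aACCATCGaccgttgagtggacc
miR-193a 5p arm at ALEH01073577.1:22525-22546, minus strand: tGGGTCTTtgcgggcgagatga
miR-193a 3p arm at ALEH01073577.1:22491-22512, minus strand: aACTGGCCtacaaagtcccagt
miR-193b 5p arm at ALEH01036672.1:12161-12184, minus strand: cGGGGTTTtgagggcgagatgagt
miR-193b 3p arm at ALEH01036672.1:12123-12147, minus strand: aACTGGCCcacaaagtcccgctttt
miR-30c-2 5p arm at ALEH01000780.1:2893-2917, minus strand: tGTAAACAtcctacactctcagctg
miR-30c-2 3p arm at ALEH01000780.1:2854-2878, minus strand: gCTGGGAGaaggctgtttactctct
miR-30c-1 5p arm at ALEH01091749.1:4707-4731, minus strand: tGTAAACAtcctacactctcagctg
miR-30c-1 3p arm at ALEH01091749.1:4670-4692, minus strand: cTGGGAGAgggttgtttactcct
miR-199b 5p arm at ALEH01100150.1:106800-106823, plus strand: cCCAGTGTttagactatctgttca
miR-199b 3p arm at ALEH01100150.1:106838-106860, plus strand: tACAGTAGtctgcacattggtta
miR-17 5p arm at ALEH01123613.1:1612-1636, plus strand: tCAAAGTGcttacagtgcaggtagt
miR-17 3p arm at ALEH01123613.1:1650-1674, plus strand: aCTGCAGTgaaggcacttgtagcat
miR-92a 5p arm at ALEH01123613.1:2313-2335, plus strand: aGGTTGGGatcagttgcaatgct
miR-92a 3p arm at ALEH01123613.1:2350-2372, plus strand: tATTGCACttgtcccggcctgtt

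MiR-181b and miR-181c share the seed of their 5p arms, shown in capitals above, and belong to a family studied in lymphocytes and brain. MiR-181b had 103 reads on 5p and 1 on 3p, a 5p share of 99.04% (94.8 to 99.98). MiR-181c had 7 on 5p and 12 on 3p, a share of 36.8% (16.3 to 61.6). The intervals of the shares do not overlap, though that of miR-181c spans an even split. A pair with the reverse layout is miR-193a and miR-193b, which share the seed of their 3p arms. MiR-193a had 18 reads on 5p and 3 on 3p (85.7% on 5p, 63.7 to 97.0), and miR-193b had 5 on 5p and 58 on 3p (7.94%, 2.63 to 17.6). Their intervals do not overlap either, so relatives with the same seed listed opposite arms as the stronger.

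In some families an arm listed at more than 1 of these loci hid which copy the reads came from. Candidates with an identical mature sequence listed the same read count at all their loci, and 19 of the 87 loci shared an arm with another of these loci. MiR-30c-1 and miR-30c-2 have the same 5p arm, with 463 reads listed at each. Their 3p arms differ in sequence and had 2 reads at miR-30c-1 and 52 at miR-30c-2. The 3p arm of miR-199a, with 256 reads, is listed at both miR-199a loci and at miR-199b. The 5p arm of miR-199a had 244 reads at either of its loci and that of miR-199b had 159, so the share at each copy could not be read from these counts. The 3 miR-9 loci were identical in both arms, with 195 reads on 5p and 4 on 3p at each, and give 1 measurement, not 3. For such arms the ratio at a locus is that of the shared count and cannot be assigned to a copy.

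Clustered hairpins that come from 1 primary transcript also differed. On contig ALEH01123613.1, which carries members of the miR-17 cluster that promotes proliferation, miR-17 had 124 reads on 5p and 46 on 3p and miR-18a had 14 on 5p and 1 on 3p. On the same contig miR-92a had 364 reads on 3p and 2 on 5p. The 5p shares were 72.9% (65.6 to 79.5), 93.3% (68.1 to 99.8) and 0.546% (0.0662 to 1.96). MiR-92a as listed therefore lay on the other side of an even split from its neighbours. Whether hairpins elsewhere also give its 3p reads was not tested. MiR-424 and miR-503, neighbours on ALEH01127965.1, both favoured 5p, with 66 against 16 and 17 against 8 reads.

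**Figure D2:**
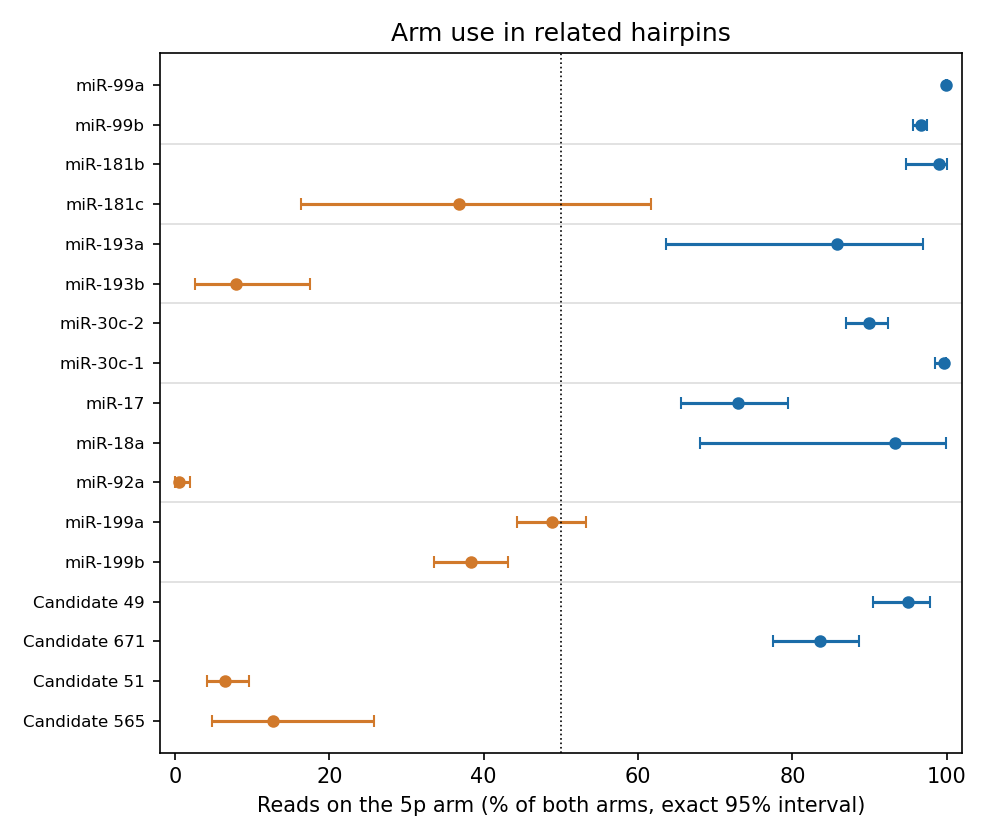
Share of reads on the 5p arm (x axis, in % of the reads of both arms) for related or neighbouring hairpins, grouped by grey lines, with exact 95% intervals as bars and the dotted line at 50%. MiR-181b and miR-181c, miR-193a and miR-193b, and miR-17 and miR-92a lie apart, and the 5p reads of miR-30c, of Candidate_49 and Candidate_671, and of Candidate_565 and the 3p reads of miR-199a and miR-199b are shared with other loci, so these bars do not give the arm use of 1 copy.

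Of the unnamed loci, 15 on 11 contigs held the letters CATGCC in a mature sequence, always in the 3p arm. Only the strand of the reads was searched. The letters were in 16 of the 177 members (9.04%), in 13 of the 579 bat candidates that overlapped no other candidate (2.25%) and in 3.81% of the whole bat list. This set was chosen after its sequences were seen. These 5 hairpins are shown because some of the set listed more reads on 5p and others on 3p.
Candidate_423 5p arm at ALEH01124378.1:4331-4354, minus strand: gTTGGCGGtatcactggtactgtt
Candidate_423 3p arm at ALEH01124378.1:4295-4317, minus strand: aCAGTAGCagacatgccgccctc
Candidate_671 5p arm at ALEH01124377.1:5836-5859, minus strand: gAAGTGGCatggctggtagtatgg
Candidate_671 3p arm at ALEH01124377.1:5800-5822, minus strand: tACTGCTAgtcatgccgcttact
Candidate_49 5p arm at ALEH01113581.1:1084-1107, plus strand: gAAGTGGCatggctggtagtatgg
Candidate_49 3p arm at ALEH01113581.1:1121-1144, plus strand: tACTGCCAgtcatgccactttcct
Candidate_51 5p arm at ALEH01113581.1:3788-3810, plus strand: aGGAGGCAtggctggtagtatgg
Candidate_51 3p arm at ALEH01113581.1:3823-3846, plus strand: aTACTGCCagacatgccacctttc
Candidate_565 5p arm at ALEH01124383.1:3381-3403, minus strand: gAGGTGGCatggctggtagtatg
Candidate_565 3p arm at ALEH01124383.1:3343-3366, minus strand: tAACTGCCagacatgccgctttcc

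The 5p arm led in 11 of these 15 loci and the 3p arm in 4, and the ratio had a median of 9.56 (range 1.5 to 320). One 5p sequence, that of Candidate_671, was listed with 153 reads at 5 loci, namely Candidate_671, Candidate_819, Candidate_422, Candidate_521 and Candidate_49. Its 3p partners had 30, 29, 16, 16 and 8 reads in that order, with 4 different sequences. These 153 reads cannot be divided among the 5 loci, so arm use at any of them is not known. All 5 are among the 11 loci led by 5p, and the median ratio of 9.56 is that listed at Candidate_422 and Candidate_521. The count of 11 and the median thus rest in part on this shared count. Candidate_51 and Candidate_53 on ALEH01113581.1 had the same sequence on both arms, with 23 reads on 5p and 333 on 3p. The 5p share of this pair, taken as 1 measurement, was 6.46% (4.14 to 9.54). Candidate_187 and Candidate_565 likewise listed more reads on 3p, 48 and 41, against 6 on their common 5p arm. At Candidate_423, 626 reads lay on 5p and 4 on 3p. Its 5p sequence differs from that of Candidate_487, listed with 640 reads, only in the last bases. The 2 may list mostly the same reads, which was not tested.

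The arms were often near equal at 9 loci on the contigs ALEH01112078.1, ALEH01112080.1, ALEH01112083.1 and ALEH01112084.1. Those named here are miR-136, miR-299, miR-337, miR-382, miR-487a and miR-494, which in placental mammals belong to the large imprinted DLK1-DIO3 cluster. This group was also picked after its values were seen. The ratio had a median of 1.19 (range 1 to 21.5), against 11.4 over all 87 loci, and was under 2 in 5 of the 9. These loci had few reads, 3 to 50 over both arms, which limits the ratio that can be seen. The 22 other loci with at most 50 reads had a median ratio of 3.83 (range 1.31 to 24), and 4 of them were under 2. MiR-382 had 14 reads on 5p and 7 on 3p, miR-299 had 1 and 13, miR-337 had 1 and 2, and the unnamed Candidate_377 had 43 and 2. The part of low counts in this difference was not tested.

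On the contigs ALEH01144121.1 to ALEH01144127.1, 5 loci, also grouped after their values were seen, ranged from even to very unequal arms. Besides Candidate_215, whose arms were even, they were Candidate_870, Candidate_869, Candidate_514 and Candidate_683, in which 3p led with 506, 262, 331 and 151 reads against 22, 23, 1 and 1. Their median ratio was 23.

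The arms paired with each other in nearly all loci. Arms joined by at least 10 base pairs are called a duplex here, whatever their overhangs. In the minimum free energy fold of the merged hairpin, at least 10 base pairs joined the 2 mature sequences in 86 of 87 loci (98.9%, 93.8 to 99.97), and the 86 duplexes had 14 to 21 pairs with a median of 18. The exception was the joined miR-24-2 and miR-27a locus, whose hairpins taken separately had 17 and 18 pairs. Hairpin candidates are predicted from their stem, so pairing of the arms was favoured by the choice of candidates. The distance between the arms, which includes the loop, had a median of 14 bases.

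The 3′ overhangs of the duplexes centred on 2 bases. Over 172 ends the median was 2, with exactly 2 bases at 57 ends (33.1%, 26.2 to 40.7) and 1 to 3 bases at 125 ends (72.7%, 65.4 to 79.2). Both ends had exactly 2 bases at 9 loci. These include miR-199b, miR-146b and miR-424. In named and unnamed loci the share of ends with 2 bases was 34.8% (26.1 to 44.4) and 30.0% (18.8 to 43.2).

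The overhang differed between the arms of a locus. The 3′ end of the stronger arm reached a median of 3 bases past its partner's 5′ end and that of the weaker arm 2. Within loci it was larger on the stronger arm in 60 of 86, equal in 18 and smaller in 8. Overhangs over 3 bases were found at 28 stronger arms and 5 weaker arms. Those under 1 base were found at 3 stronger and 11 weaker arms. An overhang of 1 to 3 bases was found at 64.0% of the ends of stronger arms (52.9 to 74.0) and at 81.4% of those of weaker arms (71.6 to 89.0). MiR-22 shows the pattern, with 4 bases on its abundant 3p arm and 0 on its 5p arm. The median on stronger arms was 2 at 1 to 9 reads, and 3 at 10 to 99 and at 100 or more. On weaker arms it was 2 in each of these ranges. Overhangs over 3 bases were found at 0 of 11, 12 of 27 and 16 of 48 stronger arms in the same order. For weaker arms the counts were 3 of 60, 2 of 21 and 0 of 5. The part of read number in the gap between the arms was not tested.

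**Figure D3:**
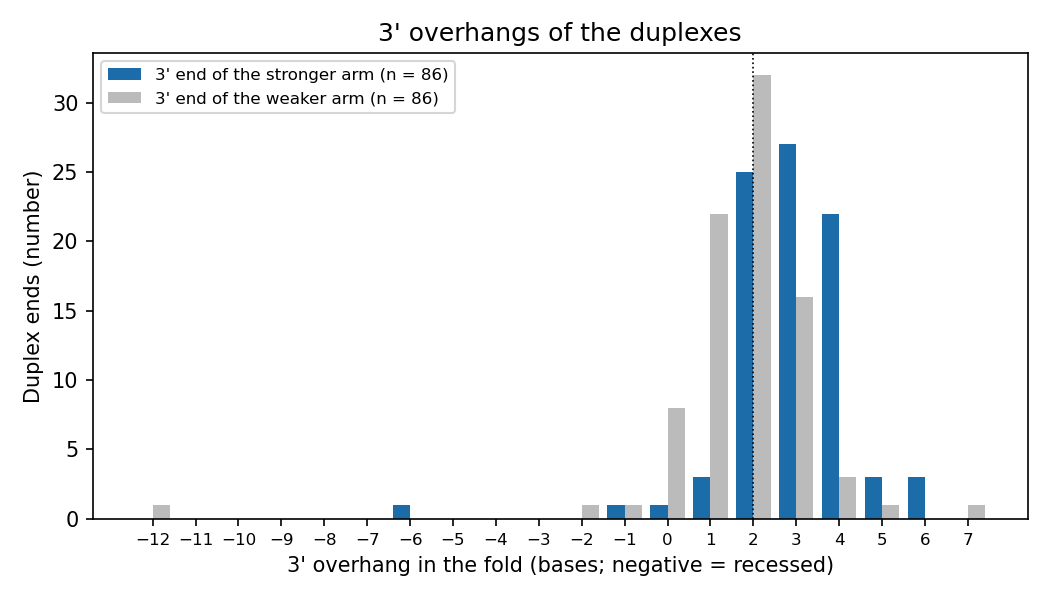
Number of duplex ends (y axis) by 3′ overhang in bases (x axis, negative where the 3′ end is recessed), in blue for the stronger arm and in grey for the weaker arm of 86 loci each; the dotted line marks 2 bases. The grey bars peak at 2 bases and the blue bars extend to 3 and 4 bases.

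The size of the overhang moved with the length of the listed sequence, in part by definition. An overhang runs to the arm's own 3′ end, so with both 5′ ends fixed each added base lengthens both. The larger overhangs of stronger arms and their greater lengths, given below, are therefore not separate observations. Stronger arms of 22 or 23 bases had a median overhang of 2, those of 24 bases 3 and those of 25 bases 4. An overhang of exactly 2 bases was seen at 9 of 11 stronger arms of 22 bases and 8 of 14 of 23 bases, against 3 of 28 of 24 bases and 5 of 31 of 25 bases. In weaker arms the median was 1 at 21 and 22 bases, 2 at 23 bases and 2.5 at 24 bases. No sequence in the bat list was longer than 25 bases. Whether the listed 3′ ends are those of the most frequent read or of the longest was not tested.

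At Candidate_425 the 3′ ends of both arms were recessed in the fold, with overhangs of -12 on the 3p arm and -6 on the 5p arm, which had 1 and 4 reads. Its arms paired over 17 bases but did not form a duplex with 3′ overhangs. At miR-494, with 2 reads on either arm, the overhangs were 0 on 3p and -1 on 5p, and at miR-218-1 they were -2 on 3p and 0 on 5p.

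Stronger arms were longer than weaker ones. The stronger arm was the longer in 55 loci, the lengths were equal in 22 and the weaker arm was longer in 10. The median length was 24 bases for stronger arms (range 19 to 25) and 23 for weaker arms (range 20 to 25). A length of 25 bases was listed for 36.8% of stronger arms (26.7 to 47.8) and 8.05% of weaker arms (3.30 to 15.9). The gap depended on the reads. Of arms with 10 to 99 reads, 8 of 27 stronger arms (29.6%, 13.8 to 50.2) and 4 of 22 weaker arms (18.2%, 5.19 to 40.3) had 25 bases, and these intervals overlap. Of arms with at least 100 reads, 23 of 49 stronger arms (46.9%, 32.5 to 61.7) and 1 of 5 weaker arms (20%, 0.505 to 71.6) did.

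**Figure D4:**
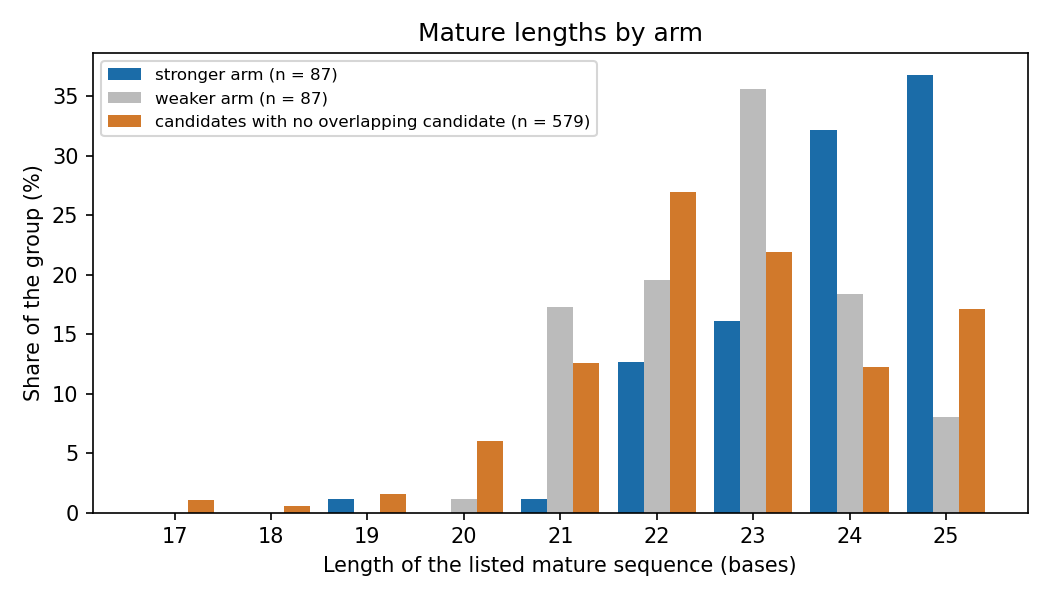
Share of each group (y axis, in %) by length of the listed mature sequence (x axis, in bases) for stronger arms, weaker arms and bat candidates that overlapped no other candidate. Stronger arms peak at 25 bases (36.8%), weaker arms at 23 and candidates without an overlap at 22.

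The first base was U more often in stronger arms, with intervals that just overlap. U, the base that Argonaute proteins favour at the 5′ end, began 42 of 87 stronger arms (48.3%, 37.4 to 59.2) and 24 of 87 weaker arms (27.6%, 18.5 to 38.2). A began 40.2% of weaker arms and 21.8% of stronger arms. Only the stronger arm began with U in 30 loci, only the weaker in 12, both in 12 and neither in 33. Arms with 1 to 9 reads showed the same order, with 6 of 11 stronger and 16 of 60 weaker arms beginning with U (54.5%, 23.4 to 83.3, and 26.7%, 16.1 to 39.7), and there the intervals overlap. Whether the listed 5′ ends are the true ends was not tested, and an extra base there would change the base counted.

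Beside the 579 candidates with no overlapping candidate, the 177 members differed mainly in support. They had a median of 17 reads (range 1 to 8100) against 2 (range 1 to 9487), and 9.04% of them rested on 1 read (5.26 to 14.3) against 37.0% (33.0 to 41.0). All 5 prediction models called 81.4% of members (74.8 to 86.8) and 42.7% of the others (38.6 to 46.8). With at least 10 reads the shares were 89.5% (82.0 to 94.7) and 73.3% (65.3 to 80.3), so a gap remained above that floor. Members there still had more reads, with medians of 104 against 53, so support was not matched. Members summed to 33142 reads, or 37.2% of the 89091 listed bat reads, and to 39.0% with each identical mature sequence counted once.

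Length, first base and fold were also compared with the other candidates. A length of 20 to 24 bases was found in 76.3% of members (69.3 to 82.3) and 79.8% of the others (76.3 to 83.0), which overlap. U began 37.3% of members (30.1 to 44.9) and 50.4% of the others (46.3 to 54.6). With at least 10 reads these shares were 41.9% (32.3 to 51.9) and 47.9% (39.6 to 56.4), which overlap. Weighted by reads, U took 25.9% in members and 57.6% in the others, and lengths of 20 to 24 bases took 29.3% and 27.4%. Weighted shares are set by the few most read candidates and count an identical sequence at each candidate that lists it. One sequence beginning with U, with 2198 reads, is listed at Candidate_155, Candidate_909 and Candidate_910, all among the others. With identical sequences counted once, the summed reads were 30533 instead of 33142 in members and 47999 instead of 55732 in the others. The stronger arms alone, at 48.3%, were close to the candidates with no overlap. The median folding energy per 100 bases was -42.5 kcal/mol in members and -41.1 in the others. Among candidates with at least 10 reads it was -42.1 (-45.6 to -41.0 as the interval of the median) against -37.5 (-39.2 to -36.2). Median GC content of the hairpins was 51.9% and 56.4%.

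The share of candidates in both-arm loci grew with reads up to 999 reads. It was 6.96% of candidates with 1 read (4.03 to 11.1), 35.9% of those with 10 to 99 reads (28.0 to 44.4) and 52.6% of those with 100 to 999 (42.2 to 62.8). Of the 16 candidates with at least 1000 reads, 3 were in such a locus (18.8%, 4.05 to 45.6), namely miR-99a, miR-22 and miR-99b. The other 13 listed 10 distinct mature sequences, led by Candidate_602 with 9487 reads. They also include Candidate_694, named here miR-145, with 3276 reads, Candidate_60, miR-101, with 2811 and Candidate_80, miR-125b, with 2341. For these no second arm is in the list, which does not show that it had no reads, since the list holds predicted hairpins only.

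**Figure D5:**
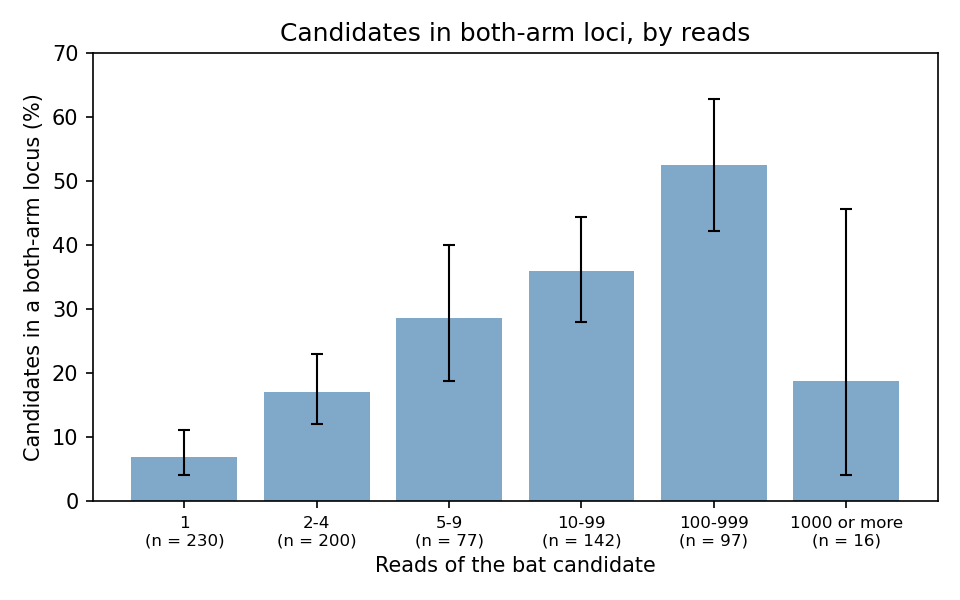
Share of bat candidates that lie in a both-arm locus (y axis, in %) by their number of reads (x axis, with the number of candidates in each range), with exact 95% intervals as bars. The share reaches 52.6% at 100 to 999 reads and is 18.8% in the 16 candidates with at least 1000 reads.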

How the data were processed

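Candidates were predicted by the authors with a local installation of miRanalyzer, which uses 5 models, per the deposited notes on the columns. The counts deposited by the authors are raw, namely distinct read sequences and summed reads per candidate. The deposited score is the number of models, 4 or 5, and the deposited fraction is reads over all reads in the authors' analysis. No source used here gives the aligner or the trimming. The submitters' processing notes name 1 build, CanFam3.1, a dog genome, for the bat library too, while the listed contigs carry the bat's species name, so the bat build is not settled. Every listed mature sequence was checked to lie at its stated place in its hairpin (762 of 762).

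Candidates were joined where hairpins shared at least 1 base on a strand. The stronger arm was the candidate with most reads and the weaker arm that with most reads among those not overlapping it, ties going to the first listed. Merged hairpins were folded with RNAfold 2.7.2. An overhang is the distance by which a 3′ end passes the base paired with the partner's 5′ base. Where that 5′ base was unpaired, the partner's nearest paired base within 4 bases was used, and the position was shifted by the distance between them. The steps recovered overhangs in simulated hairpins with fully paired stems, and loci among simulated candidates with at most 1 locus on a contig. Unpaired 5′ bases, bulges and neighbouring hairpins were not simulated. Python 3.11.15 with scipy 1.17.1 was used.

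The rule named loci with at least 10 reads on both arms, the 10 with most reads, and the 5 largest and 5 smallest ratios among loci with at least 10 reads on the stronger arm. Members, lists and comparisons were chosen with earlier results of these data known. Alternatives changed the overlap, reads, models, fold and counting of identical sequences.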

Additional observations from a re-analysis of the deposited data

How the results depend on the processing

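The count of both-arm loci was 59 to 88 under the alternatives, the 5p share 48.8% to 51.3%, the median ratio 10.8 to 14.6 and the share of overhangs of 2 bases 29.3% to 34.5%, each within 1.5 times the main count or the main interval. Duplexes formed in 100% of loci with a hairpin overlap of at least 50% and in 100% with the fold of the stronger arm's own hairpin, since both leave out or split the joined locus. With at least 10 reads, members and non-overlapping candidates had lengths of 20 to 24 bases in 63.8% and 61.6%, all 5 models in 89.5% and 73.3%, and medians of 104 and 53 reads, and the energy of the latter was -37.5. Weighted by reads, those lengths took 29.3% and 27.4% and first base U took 25.9% and 57.6%. The weighted values rest on few candidates, such as miR-99a, whose listed sequence starts with A. They also count an identical sequence at each candidate that lists it. The cause of the other shifts was not tested. No paired analysis was possible because 1 bat library was analysed. Weaker arms of 1 or 2 reads limit the precision of ratios and ends.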

Other observations

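Seeds as listed (bases 2 to 8) were shared between loci in 19 cases. Examples are miR-15b, miR-16 and miR-424, whose 5p arms share the seed AGCAGCA and led at each of these loci with 20, 36 and 66 reads against 2, 9 and 16. MiR-17 and miR-93 shared the seed of their 5p arms, with 124 and 477 reads on 5p and 46 and 5 on 3p. MiR-99a and miR-99b shared the seed of their weaker 3p arms, with 5 and 62 reads. The 2 miR-218 hairpins had 209 and 208 reads on 5p and 2 and 1 on 3p, and their listed 5p sequences share the same seed. These 5p sequences differ only in the last base and list 39 distinct read sequences each. They may list mostly the same reads, which was not tested, so they may not be 2 separate measurements.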
